A study of Mus musculus with 24 samples.

Results

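Collagen, laminin and integrin transcripts of the mouse kidney were examined in the m6A peak lists of 12 kidneys. The genes were those that a rule on names picked: every protein-coding gene of the GRCm38 annotation whose symbol begins with Col and a digit, with Lama, Lamb or Lamc and a digit, or with Itga or Itgb, and Fn1. This gave 88 of 21951 protein-coding genes, made up of 44 collagen chains, 11 laminin chains, 27 integrin chains, fibronectin and 5 genes that share only the start of the symbol (Col4a3bp, Itgb1bp1, Itgb1bp2, Itgb3bp and Itgbl1). Of the 88 genes, 38 carried an m6A peak in at least 1 kidney, against 7774 of the 21951 protein-coding genes.

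The kidneys came from male C57 mice (C57BL/6 in the study's methods) aged 8 weeks, 4 in each of 3 groups. Control mice received vehicle only. Mice of the injury group (IG) received 1 intravenous injection of cisplatin at 20 mg/kg. Mice of the treatment group (TG) received the same injection after intraperitoneal berberine, a plant alkaloid, at 20 mg/kg per day for 14 days. All kidneys were taken 72 h after the injection. In MeRIP-seq, fragmented RNA is pulled down with an antibody against N6-methyladenosine (m6A), the methyl mark on adenosines of mRNA, and stretches with more reads than the background are listed as peaks. The deposited score of a peak is its p-value as minus 10 times log10. It measures how firmly the peak was called, grows with depth and expression, and is no methylation level. A missing peak cannot be told apart from less RNA of the gene, fewer cells that express it, or a shallower library, because the lists hold no read counts. The labelled tissue could be checked only through peaks: endothelial, podocyte and fibroblast or mural markers had peaks in 4 of 5 genes each, while of 5 proximal tubule markers 2 did, and Lrp2, Slc34a1 and Slc5a2 of that segment had none. Of 4 loop and distal tubule markers, Slc12a1 had peaks in 1 control, 4 IG and 0 TG kidneys, and Umod, Slc12a3 and Calb1 had none.

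Collagens, laminins and fibronectin build the extracellular matrix. Laminin trimers of an alpha, a beta and a gamma chain form, with type IV collagen, the basement membranes under tubules and around glomerular capillaries, and fibrillar collagens fill the interstitium and the scar of fibrotic kidneys. Integrins are pairs of an alpha and a beta chain that span the cell membrane and bind these matrix proteins. The mark itself is written by a methyltransferase complex, often within the letters GGAC, and lies mostly in long internal exons and around stop codons.

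Peaks that shared at least 1 bp on the same strand, in any kidneys, were taken as a single locus. There were 73 loci in the 38 genes and 16815 in all. The peaks follow exons, and 78.9% of the member loci covered a whole exon, against 77.5% of all loci in protein-coding genes. The stretches are thus known to the exon and not to the base. The coding sequences of 4 loci on which the comparisons below turn are printed from GRCm38 on the gene's strand, with the letters GGAC in capitals. They are Itgb3 exon 5 (chr11:104637052-104637214, + strand), Lama2 exon 36 (chr10:27119908-27120070, - strand), Itgb2l exon 3 (chr16:96438464-96438552, - strand) and Itgb2l exon 4 (chr16:96437270-96437450, - strand).
Itgb3 exon 5: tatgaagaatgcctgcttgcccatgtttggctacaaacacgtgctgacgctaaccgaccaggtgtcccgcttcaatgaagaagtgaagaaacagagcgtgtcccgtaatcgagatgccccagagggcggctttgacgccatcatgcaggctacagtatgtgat
Lama2 exon 36: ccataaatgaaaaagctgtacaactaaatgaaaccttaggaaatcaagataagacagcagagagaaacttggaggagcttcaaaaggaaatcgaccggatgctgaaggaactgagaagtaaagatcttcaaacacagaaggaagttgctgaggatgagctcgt
Itgb2l exon 3: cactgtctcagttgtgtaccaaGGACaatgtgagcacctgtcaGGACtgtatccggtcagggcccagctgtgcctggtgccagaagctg
Itgb2l exon 4: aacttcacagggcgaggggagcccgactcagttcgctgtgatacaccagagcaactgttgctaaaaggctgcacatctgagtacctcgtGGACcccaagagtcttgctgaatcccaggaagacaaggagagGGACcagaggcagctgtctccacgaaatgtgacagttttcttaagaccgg

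The exons of Itgb3 and Lama2 held GGAC 0 times on the gene's strand, and each of the Itgb2l exons held it 2 times. Over all member loci the motif GGAC occurred 4.63 times per kb on the gene's strand and 3.58 times per kb on the opposite strand, and 71.2% and 56.2% of the loci held it. Over all 16815 loci these values were 4.32 and 3.38 per kb, and 68.1% and 59.7%. Per kb, GGAC occurred 6.25 times in collagen loci (4.82 on the opposite strand), 4.83 times in laminin loci (3.05) and 3.35 times in integrin loci (2.85). By the share of loci that held it on the gene's strand the order was another, with 89.5% of integrin loci, 78.3% of collagen and 56% of laminin loci. This share depends on length: the 19 integrin loci spanned 18.2 kb and the 25 laminin loci 7.86 kb. In windows of 100 bases at the midpoint, 52.6% of integrin, 44% of laminin and 39.1% of collagen loci held it, against 34.7% of all loci. On the opposite strand these shares were 26.3%, 28%, 34.8% and 25.7%. The longer motif GGACT, which contains GGAC, occurred at 1.14 per kb on the gene's strand of the member loci and at 1.15 per kb in all loci.

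Among collagens, 13 of 44 chains carried a peak, among laminins 8 of 11 and among integrins 14 of 27, beside 7774 of 21951 protein-coding genes. A total of 6 member genes had a peak in all 12 kidneys (Col5a1, Lama3, Lamc1, Itga8, Itga9 and Itgb2l), and 5 had one in a single kidney. The abundant interstitial collagens Col1a1, Col1a2 and Col3a1 had no peak in any kidney. Of the type IV chains, Col4a1, Col4a3, Col4a4 and Col4a6 had none, Col4a2 had 1 peak in 1 control kidney, and Col4a5 had peaks in 2 IG and 2 TG kidneys. Lama5 and Lamb2, chains of the mature glomerular basement membrane, had none, nor did Lama1. Among integrins the widely expressed Itgb1 and Itgav had none, nor did Itgb2, Itgb4, Itgb7, Itga2, Itga2b, Itga10, Itga11, Itgad, Itgae, Itgal and Itgax. The remaining collagens without a peak were Col2a1, Col5a3, Col6a2, Col6a4, Col6a5, Col6a6, Col7a1, Col8a2, Col9a1, Col9a2, Col9a3, Col10a1, Col11a1, Col11a2, Col15a1, Col16a1, Col17a1, Col20a1, Col22a1, Col23a1, Col24a1, Col25a1, Col26a1 and Col28a1. Itgb1bp1, Itgb1bp2 and Itgbl1 had none either.

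**Figure D1:**
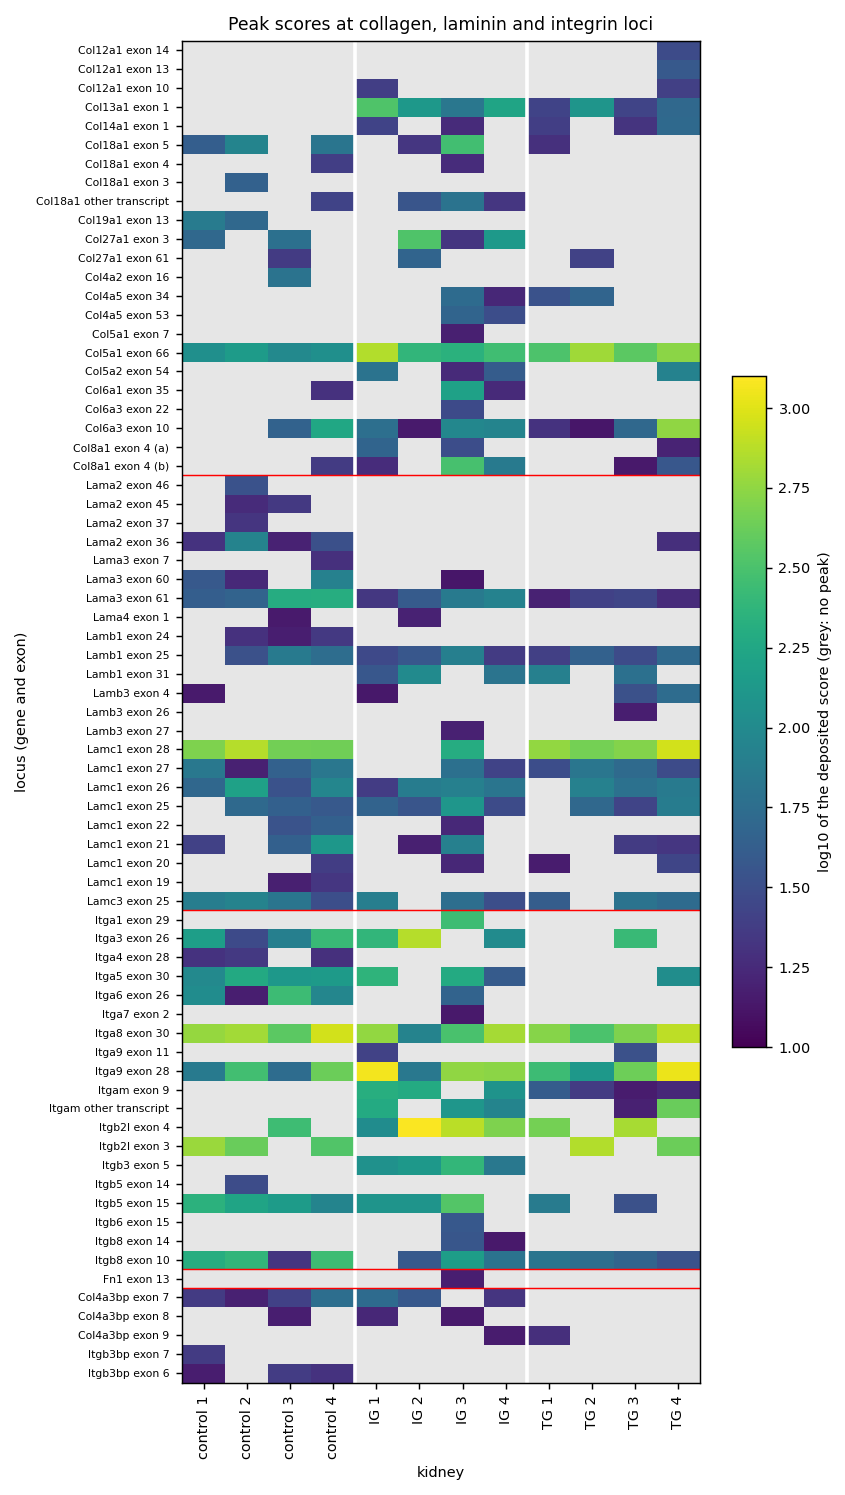
Each row is a locus (71 of the 73 are drawn), named by gene and exon, each column a kidney, and the colour is log10 of the deposited score (grey where the kidney has no peak, red lines between families). Col5a1 exon 66, Lama3 exon 61, Itga8 exon 30 and Itga9 exon 28 are filled in all 12 kidneys, and IG 3 has the most filled cells.

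The families differed in where their peaks lay. Laminin loci were nearly all inside the coding sequence: 22 of 25 lay in internal exons, 21 in coding sequence away from the start and stop codons, and 2 (8%) held a stop codon. Of 19 integrin loci, 9 (47.4%) held a stop codon and 8 (42.1%) lay in coding sequence away from both codons. Collagen loci were in between, with 6 of 23 at a stop codon (26.1%). Over all 73 member loci 23.3% held a stop codon and 67.1% lay in internal exons, against 25.3% and 60.6% of the 16565 loci in protein-coding genes. In transcript order, 22 of 25 laminin loci lay beyond the midpoint of the exon order (88%), against 8 of 22 collagen loci (36.4%) and 59.9% of all loci.

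A smaller share of internal exons carried a locus in these genes than in all genes. In the 38 genes with a peak, 49 of 1252 internal exons did (3.91%). In all 7774 protein-coding genes with a peak, 10223 of 76454 did (13.4%). The member genes thus have more internal exons per gene, so the lower share per exon does not show fewer loci per gene. The share was 2.22% in collagens, 2.69% in integrins and 7.28% in laminins. Exons with a locus were longer than those without, with medians of 151 and 110 nt over the member genes and of 155 and 123 nt over all genes. The contrast was widest in collagens, at 130 against 63 nt. Fibrillar collagen domains are coded by many short exons whose lengths are multiples of 9 nt, the length of a Gly-X-Y triplet. Exons were counted by length alone over all 13 collagen genes with a peak, fibrillar or not. Of 304 internal exons of at most 108 nt with such a length, 4 carried a locus (1.32%). Those 4 lay in Col4a2, Col4a5, Col18a1 and Col19a1, which are not fibrillar collagens. Of the 282 other internal exons, which had no cap on length, 9 carried a locus (3.19%). These shares thus cannot separate triplet coding from exon length. The last exon carried a locus in 18 of the 38 member genes (47.4%) and in 56.9% of all genes with a peak.

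**Figure D2:**
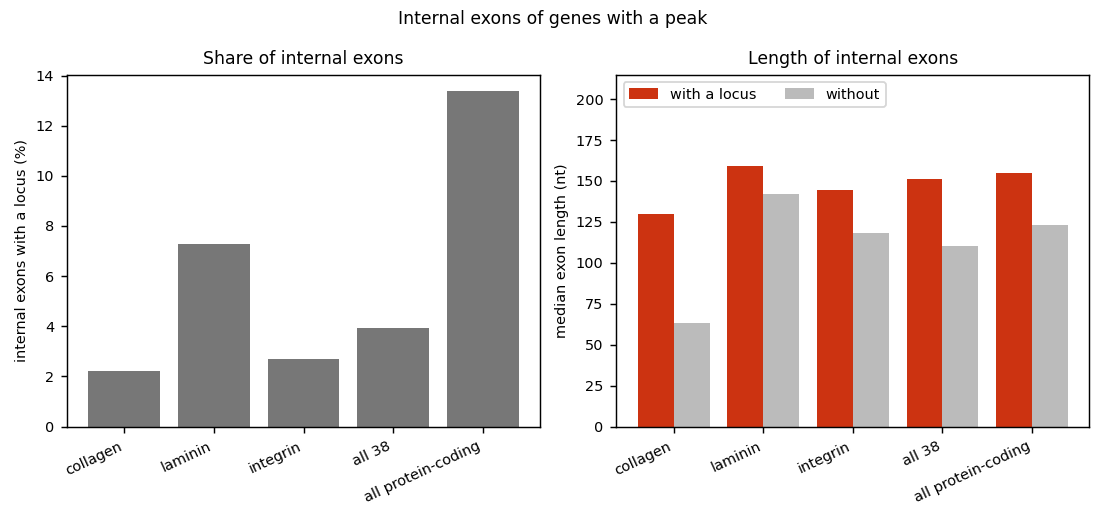
The left panel gives the share of internal exons with a locus in percent, and the right panel the median length in nt of internal exons with (red) and without (grey) a locus, for the genes with a peak. The share in the matrix and integrin genes (3.91%) lies below that of all protein-coding genes (13.4%), and collagen exons with a locus have a median of 130 nt against 63 nt. The share is per exon, and the matrix and integrin genes have more internal exons per gene.

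Counted per kidney, more collagen genes were listed in IG than in control kidneys, while the lists as a whole were shorter. Collagen genes with a peak numbered 4, 3, 4 and 5 in control kidneys, 7, 5, 10 and 9 in IG kidneys and 6, 5, 5 and 7 in TG kidneys. These are means of 4 ± 0.816, 7.75 ± 2.22 and 5.75 ± 0.957 (SD, n = 4 each). IG and control kidneys overlapped at 5 genes only, and the difference of 3.75 genes stayed between 3 and 4.67 when any 1 kidney was left out. Over the same kidneys the mean number of all listed peaks was 8952 ± 458 in control, 7422 ± 687 in IG and 6380 ± 375 in TG (SD, n = 4 each), and that of protein-coding genes with a peak was 4966 ± 165, 4378 ± 245 and 3836 ± 231. These counts over a named list were not tested. With every list shortened to its 5901 highest-scoring peaks, the collagen difference between IG and control was 3 genes. With only scores of at least 71.3, the median of all lists, it was 2 genes, and that between TG and control went from 1.75 to 0. Of 5 fibroblast and mural markers, 2 to 4 had a peak in each control, 2 to 3 in each IG and 3 in each TG kidney. The top score of Pdgfra, a fibroblast receptor, was 61.9 to 216 in control, 386 to 1517 in IG and 15.7 to 2273 in TG kidneys, so IG lay above control without overlap. That of Pdgfrb overlapped, at 793 to 1989, 1362 to 3100 and 1059 to 3100. Cspg4 had a peak in 3 kidneys of each group, Acta2 in 1 control and 1 TG kidney, and Tagln in none. The part of fibroblast number in the collagen counts was not tested.

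Laminin genes with a peak numbered 6, 6, 7 and 6 in control, 6, 4, 6 and 5 in IG and 5, 4, 6 and 6 in TG kidneys, so all groups overlapped. The mean number of laminin peaks was lower in both cisplatin groups, at 14.2 ± 2.22 in control, 9.25 ± 3.2 in IG and 9.75 ± 2.22 in TG (SD, n = 4 each). Single kidneys overlapped, with 11 to 16 in control, 7 to 14 in IG and 7 to 12 in TG. The mean of all listed peaks was lower in both cisplatin groups too, at 8952, 7422 and 6380. At equal list length the difference in laminin genes turned from -1 to 0.75 for IG and from -1 to 1 for TG against control. Integrin genes with a peak numbered 9, 9, 8 and 9 in control, 8, 8, 12 and 8 in IG and 6, 5, 7 and 6 in TG kidneys. All TG kidneys lay below all control and IG kidneys, with mean differences of -2.75 genes against control and -3 against IG, and of -1.25 and -2.75 at equal list length.

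Over all families, member genes with a peak numbered 20.8 ± 1.26 in control, 23.2 ± 4.99 in IG and 17.2 ± 2.22 in TG kidneys (SD, n = 4 each). IG 3 stood apart within its group with 30 member genes, against 18 to 23 in the other IG kidneys, and it had the longest IG list, 8357 peaks. Without IG 3 the difference between IG and control was 0.25 genes, in place of 2.5. The difference of -3.5 genes between TG and control turned to 1.75 at equal list length.

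**Figure D3:**
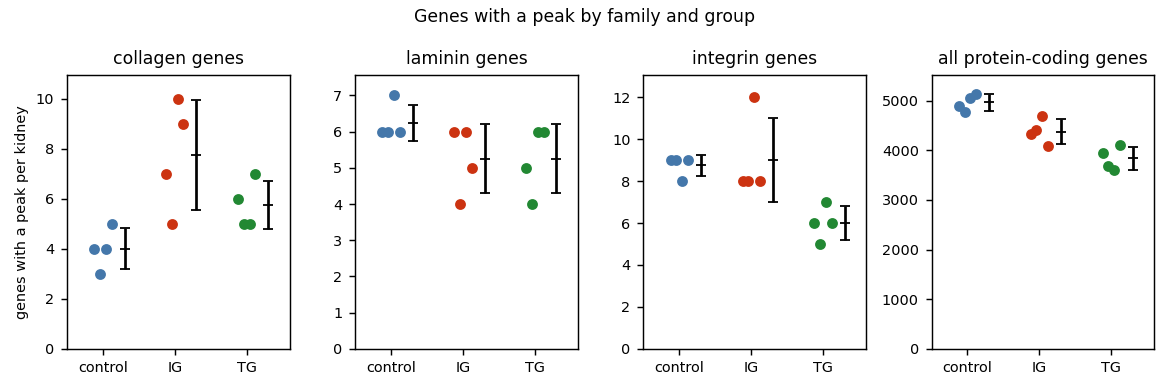
Points are single kidneys, bars the mean ± SD of 4 kidneys, and the vertical axes give genes with a peak per kidney for collagens, laminins, integrins and all protein-coding genes. Collagen genes with a peak number 3 to 5 in control and 5 to 10 in IG kidneys, while all protein-coding genes with a peak go from a mean of 4966 to 4378.

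Presence of a peak was then compared between IG and control gene by gene. A gene or locus was called when it was listed in 4 of 4 kidneys on one side and in 0 of 4 on the other, the only outcome with a two-sided Fisher's exact p under 0.05 (p = 0.0286). No gene or locus passed after Benjamini-Hochberg adjustment over all features tested, with a lowest adjusted p of 0.564 for genes and 0.701 for loci, so the calls are descriptions of these kidneys. Of the 38 member genes with a peak in either group, 3 were called with a peak only in IG (Itgb3, Col13a1 and Itgam), against 1.9% of all 7526 genes tested, and 1 with a peak only in control (Lama2), against 3.16%. Of 70 member loci, 2 were called in the direction of IG, against 1.35% of all 16072 loci, and 1 in the direction of control, against 2.73%. The groups differed by 3 or 4 kidneys at 7 member loci with more IG kidneys, against a background of 3.82%, and at 7 with fewer, against 8.95%.

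Itgb3 was the only member called both between IG and control and between TG and IG. It encodes the beta chain of the vitronectin receptor and of the platelet fibrinogen receptor. Its only locus was the coding exon 5 of 15 printed above, with scores of 115, 133, 244 and 69.5 in IG 1 to 4. No control and no TG kidney had a peak there. Its alpha partners Itgav and Itga2b had no peak in any kidney. The call held at equal list length, and with scores of at least 71.3 IG 4 dropped out.

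Col13a1 encodes collagen XIII, a collagen anchored in the cell membrane. Its locus was the first exon with the start codon (chr10:61978349-61979108, - strand). The scores were 333, 131, 67.6 and 168 in IG 1 to 4 and 26.4, 124, 26.9 and 51.1 in TG 1 to 4, and no control kidney had a peak. All 8 cisplatin-treated kidneys were thus separated from the 4 control kidneys, at equal list length too. With scores of at least 71.3, 3 IG and 1 TG kidneys were left and both calls were lost.

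Itgam encodes the alpha chain of the complement receptor of macrophages and neutrophils. All 4 IG and all 4 TG kidneys had a peak at 1 or both of its loci, and no control kidney had one. The exon 9 locus had scores of 206, 193 and 119 in IG 1, 2 and 4 and 40.9, 23.4, 14.4 and 17.5 in TG 1 to 4. The TG scores all lay below those of these IG kidneys, while IG 3 had no peak there. This locus also overlapped exons of the gene model Gm49368, so its peaks cannot be assigned to Itgam alone. The second locus, in an exon outside the transcript with the longest coding sequence, had scores of 193, 128 and 89.4 in IG 1, 3 and 4 and 15.6 and 416 in TG 3 and 4. Of 5 leukocyte markers, Cd68, Adgre1, Csf1r and Cd3e had no peak in any kidney and Ptprc had one in 1 control kidney, and the part of leukocyte number in the Itgam peaks was not tested.

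Lama2, the alpha chain of the laminin of muscle and interstitial basement membranes, had peaks in 4 control, 0 IG and 1 TG kidneys. At exon 36 the scores were 20.1, 86.7, 15.8 and 32.7 in control 1 to 4 and 19.3 in TG 4. These scores were low, and at equal list length the peak was left in 1 control kidney and the call was lost. Its other 3 loci, in exons 37, 45 and 46, had 1 or 2 peaks each, all in control 2 and control 3.

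Laminin gamma 1, coded by Lamc1, is part of most laminin trimers, and its transcript carried the most loci of all members. The 8 loci lay in exons 19 to 28 of 28. The locus at the stop codon in the last exon had scores of 497, 740, 447 and 439 in control 1 to 4 and of 580, 460, 514 and 906 in TG 1 to 4. In IG it was present in IG 3 alone, with a score of 199. The separation of IG from both other groups thus rested on the absence of a strong peak in 3 kidneys, and it was as large at equal list length and with scores of at least 71.3. Exon 27, next to it, was listed in 4 control, 2 IG and 4 TG kidneys, whereas exons 26 and 25 were listed in all 4 IG kidneys. The transcript itself therefore carried a peak in every kidney.

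Different exons of Lamb1, the beta chain paired with gamma 1, were listed in different groups. Exon 24 was listed in control 2, 3 and 4 with scores of 19.99, 14.9 and 22.5 and in no other kidney. Exon 31 was listed in IG 1, 2 and 4 with scores of 37.5, 101 and 64.8, in TG 1 and 3 with scores of 82.1 and 59.7, and in no control kidney. Exon 25 was listed in 11 of 12 kidneys, so the gene had a peak in all but 1. At equal list length exon 31 still differed by 3 kidneys, while exon 24 differed by 0.

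Itgb2l, a leukocyte beta chain gene related to Itgb2, reached the highest score among the loci that differed, and its peak sat in exon 3 or exon 4 but never in both. Exon 4 was listed in control 3 with a score of 283, in IG 1 to 4 with scores of 105, 1220, 769 and 492, and in TG 1 and 3 with scores of 459 and 666. Exon 3 was listed in control 1, 2 and 4 with scores of 610, 414 and 337 and in TG 2 and 4 with scores of 726 and 428. Exactly 1 of the 2 exons was listed in each of the 12 kidneys, so Itgb2l as a gene did not differ between groups. Each peak number of the peak caller occurred once in a list (0 repeated numbers in all 12 lists), and each row holds a single stretch. Whether a call that spans both exons was written under 1 of them was not tested.

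Among integrin alpha chains, Itga6, a laminin receptor of epithelial cells, was listed at its stop codon in control 1 to 4 with scores of 106, 15.0, 275 and 91.9, in IG 3 with 46.5, and in no TG kidney. Itga4, a receptor chain of leukocytes, was listed in control 1, 2 and 4 with scores of 20.2, 22.2 and 19.7 and in no other kidney, and none of these peaks was left at equal list length. Itga3 and Itga5, chains of laminin and fibronectin receptors, were each listed in 4 control, 3 IG and 1 TG kidneys. These 4 alpha chains had their peaks in the last exon, where Itga8 and Itga9 were listed in all 12 kidneys. Itga9 had another locus, in exon 11 of 28, with scores of 26.2 in IG 1 and 33.0 in TG 3.

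Col5a2, a chain of the fibrillar collagen V, was listed at its stop codon in IG 1, 3 and 4 with scores of 63.3, 17.9 and 40.8, in TG 4 with 85.3 and in no control kidney. Fn1, the fibronectin gene, had a single peak in the 12 kidneys, in exon 13 of IG 3 with a score of 15.1, close to the lowest score of all lists (13.0). It gives no basis for a comparison of fibronectin. Itgb3bp, a centromere protein gene named for its binding to the integrin chain and no integrin itself, was listed at exon 6 in control 1, 3 and 4 with scores of 14.7, 23.6 and 20.2 and in no other kidney. The exon 6 peaks of Itgb3bp were absent at equal list length.

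**Figure D4:**
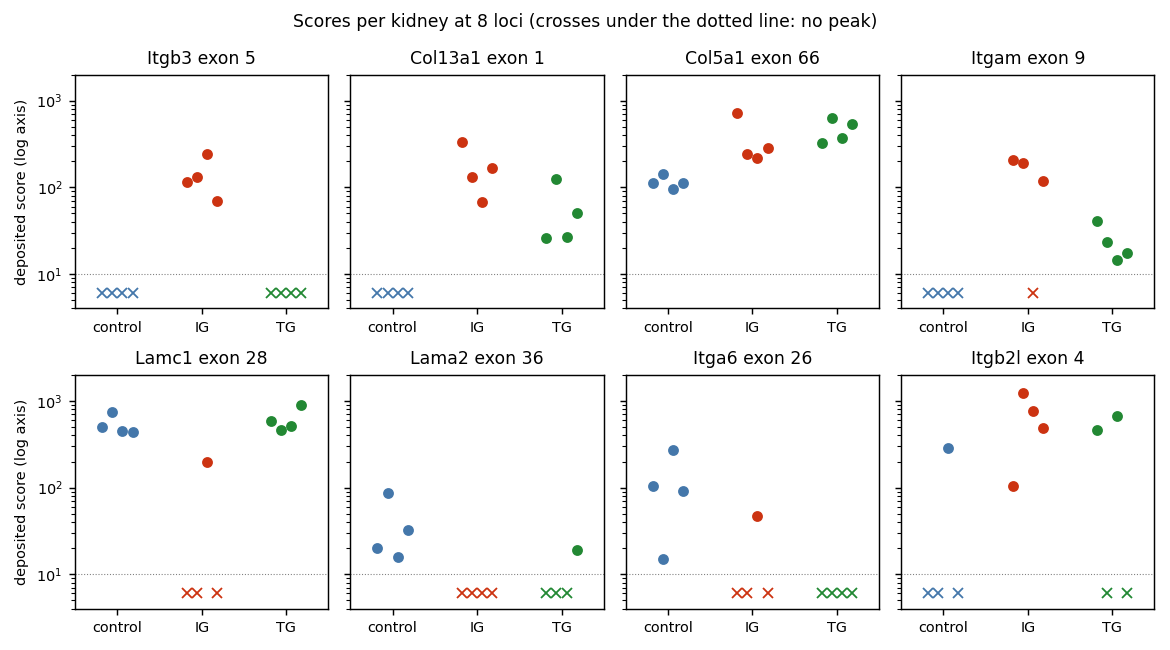
Points give the deposited score of each kidney on a log axis at 8 loci, in the order of kidneys 1 to 4 within each group, and crosses under the dotted line stand for no peak. Itgb3 exon 5 has points in the 4 IG kidneys only, Col13a1 exon 1 has none in control, and Lamc1 exon 28 has 1 point in IG against 4 in control and 4 in TG.

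Berberine pretreatment was addressed by comparing TG with IG, 2 groups that both received cisplatin. Member calls were few, as were all calls. With a peak in all 4 TG kidneys and no IG kidney, 0 of 34 member genes and 0 of 60 member loci were found, where the background was 0.255% of 6666 genes and 0.217% of 13367 loci. In the other direction 1 gene and 1 locus, both Itgb3, were called, against 0.51% and 0.449%. The lowest adjusted p by Fisher's exact test was 1. At a difference of at least 3 of 4 kidneys, 1 member locus had more TG kidneys (Lamc1 exon 28, background 1.28%) and 4 had fewer (background 3.21%).

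Those 4 loci were Itgb3 exon 5, Col27a1 exon 3, a Col18a1 exon and Col4a3bp exon 7. Col27a1, a fibrillar collagen of cartilage, was listed in its 1736 nt exon 3 in control 1 and 3 with scores of 51.1 and 59.9 and in IG 2, 3 and 4 with scores of 333, 21.1 and 136. Col18a1, whose product is cut to endostatin, was listed in an exon outside the main transcript (chr10:77089200-77089428, - strand) in control 4 with 26.7 and in IG 2, 3 and 4 with 35.8, 63.4 and 21.6. No TG kidney had a peak at either, and each had fewer than 3 of 4 control kidneys. Col4a3bp, which codes for a ceramide transfer protein and no collagen, was listed at exon 7 in control 1 to 4 with scores of 23.4, 15.5, 25.4 and 57.1 and in IG 1, 2 and 4 with 54.3, 37.8 and 21.3, and in no TG kidney.

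TG was also set against control, which shares its kidneys with the comparison of IG and control. Of 33 member genes, 2 (Col13a1 and Itgam) were called with a peak only in TG, against 1.51% of 7242 genes, and 1 (Itga6) only in control, against 4.38%. Of 63 member loci, 2 were called in the direction of TG (Col13a1 exon 1 and Itgam exon 9), against 1% of 15169 loci. In the direction of control 2 were called (Itga6 exon 26 and Col4a3bp exon 7), against 3.73%. The lowest adjusted p was 0.486 for genes and 0.604 for loci. At equal list length the calls toward control numbered 0.

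Scores were compared at the loci listed in all 12 kidneys, 2417 in all and 4 of them in member genes, with limma on log2 scores centred on the median of each kidney. At Col5a1 exon 66, the stop codon locus of collagen V alpha 1 (chr2:28036870-28039157, + strand), the scores were 111, 141, 96.5 and 111 in control 1 to 4, 728, 240, 219 and 288 in IG 1 to 4, and 328, 626, 369 and 540 in TG 1 to 4. Every IG and TG kidney lay above every control kidney. The log2 score rose by 1.66 ± 0.44 (SE) in IG against control (limma adjusted p = 0.0152) and by 2.39 ± 0.44 in TG against control (adjusted p = 0.00168). TG and IG differed by 0.72 ± 0.44 (adjusted p = 0.487). Col5a1 was 1 of 4 member loci called in IG against control, where 19.7% of all loci were, and 1 of 4 in TG against control, where 20.5% were. In TG against IG, 0 of 4 were called at an adjusted p under 0.05 and 0 at an unadjusted p under 0.05, with 0.248% of all loci called. Without IG 1 the difference between IG and control was 1.28 and lost its call (adjusted p = 0.0522).

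The other 3 loci of this kind belonged to Itga8, Itga9 and Lama3. Itga8, the receptor chain for nephronectin in kidney development, had the highest median score of all integrin loci at its stop codon. Its scores were 583, 650, 371 and 908 in control, 570, 87.7, 317 and 660 in IG, and 522, 323, 495 and 779 in TG. The groups overlapped, with log2 differences of -0.75 ± 0.55 in IG and 0.16 ± 0.55 in TG against control (adjusted p = 0.376 and 0.863). Itga9, a chain of the tenascin and osteopontin receptor, had scores of 72.7, 293, 55.1 and 428 in control, 1163, 68.9, 562 and 542 in IG, and 274, 132, 429 and 1085 in TG. Its difference of 1.55 ± 0.85 between IG and control did not pass (adjusted p = 0.23) and passed without IG 2 (2.40 ± 0.74, adjusted p = 0.0359). Lama3, the alpha chain of epithelial laminin, had scores at exon 61 of 42.4 to 204 in control, 22.1 to 85.2 in IG and 16.0 to 27.2 in TG. All TG scores of Lama3 lay below all control scores, with a log2 difference of -1.76 ± 0.61 that missed the threshold (adjusted p = 0.0532). It passed without control 1, control 2 or IG 1 (adjusted p = 0.0391, 0.0469 and 0.0456). Leaving out any other kidney did not bring it past, as without IG 2 (limma adjusted p = 0.0618). In the fit over loci in at least 9 kidneys, described next, it was -1.63 ± 0.61 and did not pass either (limma adjusted p = 0.0846).

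A fit over the 4608 loci listed in at least 9 kidneys, in which kidneys without a peak are left out of the locus, gave like values for Col5a1. Its log2 difference was 1.79 ± 0.47 (SE) for IG against control (limma adjusted p = 0.0168) and 2.51 ± 0.47 for TG against control (adjusted p = 0.00191). In that fit 2 of 14 member loci were called in each comparison with control, where 13.8% of all loci were called for IG and 14.1% for TG. Between TG and IG 0 of 14 member loci and 0% of all loci were called with limma, with 523 of the 4608 loci at an unadjusted p under 0.05. Col6a3, a chain of the microfibrillar collagen VI, was listed at exon 10 in control 3 and 4 with 45.9 and 177, in IG 1 to 4 with 59.0, 14.2, 93.2 and 88.7, and in TG 1 to 4 with 20.5, 13.4, 51.0 and 565. Its scores overlapped between the groups.

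Lamc1 and Lamc3, which both code for laminin gamma chains, had a peak at a like position, which was noticed after the values were seen. Exon 25 of each is 200 nt long, is followed by 3 more exons, and was listed in 10 of 12 kidneys. Equal length is not particular to it, since exons 2, 14 and 27, among others, are also equally long in both genes. Exons 26 and 27 were listed in 11 and 10 kidneys in Lamc1 and in 0 kidneys in Lamc3. The sequences are printed to let the exons be compared, with GGAC in capitals (Lamc1 chr1:153227511-153227710, - strand, and Lamc3 chr2:31937890-31938089, + strand).
Lamc1 exon 25: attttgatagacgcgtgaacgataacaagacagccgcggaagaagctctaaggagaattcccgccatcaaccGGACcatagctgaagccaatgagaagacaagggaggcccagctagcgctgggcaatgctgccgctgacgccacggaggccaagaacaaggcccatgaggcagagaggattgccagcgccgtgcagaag
Lamc3 exon 25: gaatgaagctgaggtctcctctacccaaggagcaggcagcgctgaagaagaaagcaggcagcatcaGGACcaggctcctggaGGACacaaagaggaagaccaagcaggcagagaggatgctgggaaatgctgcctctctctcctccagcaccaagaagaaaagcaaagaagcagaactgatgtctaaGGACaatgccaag

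Compared base by base without gaps, 45% of the positions were equal between the 2 exons. The share that unrelated exons would give was not tested. GGAC occurred 1 time in the Lamc1 exon and 3 times in the Lamc3 exon. Lamc3 exon 25 had scores of 31.8 to 87.7 in control, 31.7 to 79.0 in IG and 42.0 to 62.9 in TG kidneys. The Lamc3 scores overlapped between all groups.

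**Figure D5:**
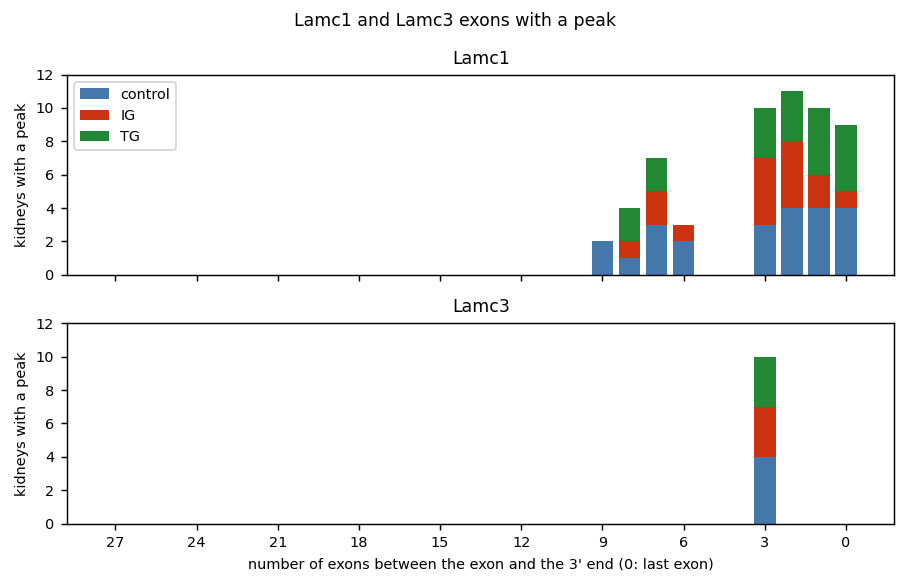
Each bar is an exon of Lamc1 or Lamc3, placed by the number of exons between it and the 3' end, and its height is the number of kidneys with a peak, stacked by group. The exon followed by 3 others is listed in 10 kidneys in each gene, and exons further than 9 from the end carry no peak.

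Genes that act on or beside these proteins were described from lists written for this tissue. Of 20 collagen processing enzymes and chaperones 7 had a peak, of 13 basement membrane partners 10, of 16 other matrix and matricellular genes 7, of 16 genes of the integrin adhesion complex 7, and of 12 genes of matrix turnover 6, where 7774 of 21951 protein-coding genes did. In IG against control Vcan, a large proteoglycan, was called with a peak in 4 IG and 0 control kidneys, and Thbs1, a matricellular activator of TGF-beta, with a peak in 0 IG and 4 control kidneys. The shares over all genes were 1.9% and 3.16%. In TG against control Frem1, a basement membrane adaptor, was called with 4 TG and 0 control kidneys and Thbs1 with 0 TG and 4 control kidneys, where the shares over all genes were 1.51% and 4.38%. No gene of these 5 lists was called between TG and IG, and none passed the adjustment in any comparison. Of the cell type markers, Slc12a1 of the loop was called between TG and IG, with a peak in 4 IG, 0 TG and 1 control kidneys, where the share over all genes was 0.51%. The study reported the opposite for Slc12a1 methylation, lower in IG than in control and higher in TG than in IG. The reason for this disagreement was not tested. Among 4 tubule injury markers, Havcr1 (KIM-1) was called between IG and control, with a peak in 0 control, 4 IG and 3 TG kidneys, where the share over all genes was 1.9%. Vcam1 had a peak in 4 control, 3 IG and 3 TG kidneys, while Lcn2 and Krt20 had none. The study, however, lists Krt20 sites among its largest m6A gains in IG against control. The lack of a Krt20 peak in these lists therefore does not show that its m6A is absent.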

How the data were processed

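m6A was measured by MeRIP-seq in 12 kidneys (4 control, 4 IG and 4 TG), grouped by the sample labels. The authors trimmed reads with cutadapt 1.9.3, aligned them with HISAT2 2.0.4 to mm10, ran MACS on each kidney and deposited the peaks that lie on exons of mRNA. The MACS version, threshold and control library are not given in the sources used here. The deposited score, from 13.0 to 3233, is each peak's p-value on a minus 10 times log10 scale, as the study describes it. The lists hold 5901 to 9579 peaks per kidney and no read counts, so the depth is unknown, no counting interval can be given, and 4 kidneys per group limit the precision. The 12 input libraries were not analysed here.

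Peaks were assigned to protein-coding genes of GENCODE M21 by an overlap of at least 1 bp with an exon on the same strand. Presence was compared with two-sided Fisher's exact tests and Benjamini-Hochberg adjustment over all genes or loci with a peak in either group. Scores were fitted with limma 3.58.1 in R 4.3.3 (eBayes with trend) over all 12 kidneys. The steps were tested on simulated data. Computation and plots used numpy 2.4.6, pysam 0.24.0, scipy 1.17.1 and matplotlib 3.10.9 under Python 3.11.15.

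The member genes follow a rule on symbols, but the choice of these families and of the lists was made with earlier results of these data known, so counts over them get no p-value. By rule, values in every kidney are given for loci called, loci that differ by at least 3 of 4 kidneys in IG against control or TG against IG, loci past the threshold in the score fit, Fn1, and the 2 loci with the highest median score in each family (kidneys without a peak taken as 0). Lamb1 exon 25, Lamc3 exon 25, Lama3 exon 61 and the comparison of the Lamc1 and Lamc3 exons were added after the values were seen. A single member with a peak stays in the counts, and its own values are not reported here. Alternatives were equal list lengths, scores of at least 71.3, peaks with an exonic share of at least 0.5, joining within 100 bp or regardless of strand, replicate number as a block, quantile normalization, sums of scores, loci in at least 9 kidneys, and leaving out each kidney in turn.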

Additional observations from a re-analysis of the deposited data

Results flagged for a closer look

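In groups of 4 kidneys, the highest or lowest value was set against the others by Dixon's ratio, the gap to its neighbour over the range of the group, at the 95% critical value for groups of this size. Of 58 groups of values, 6 passed, and chance passes about 1 in 20 groups. Among laminin counts, 1 control kidney had 7 genes with a peak where the others had 6. IG 3 had 14 laminin peaks against 7 to 8 in the other IG kidneys. Among integrin counts, 1 control kidney had 8 genes with a peak against 9 in the others, and IG 3 had 12 against 8. At Col6a3 exon 10, TG 4 had a score of 565 against 13.4 to 51.0. At Col5a1 exon 66, IG 1 had a score of 728 against 219 to 288. The counts of the control kidneys differ by 1 gene only, so the ratio there reflects tied whole numbers.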

How the results depend on the processing

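Depth is unknown and list lengths differ between the groups. At equal list lengths the TG against control difference in member genes went from -3.5 to 1.75, the laminin differences against control went to 0.75 (IG) and 1 (TG), and the integrin difference between TG and control to -1.25. In the same setting no member gene or locus was called toward control (0 each), and 1 locus was called toward TG against control. With scores of at least 71.3 the collagen differences against control were 2 (IG) and 0 (TG), the laminin difference between IG and control was 0, and 1 gene, Itgam, was called toward IG. All other presence calls of genes and loci were then 0. With the replicate number as a block, the exact paired test of 4 pairs cannot go below 0.05, so every presence count was 0. In the score fit the block gave 1 member call for IG and 2 for TG against control, the second being Lama3 exon 61 (-1.76 ± 0.52, limma adjusted p = 0.0336). Replicate numbers did not pair the kidneys: correlations of same-numbered kidneys ran from -0.029 to 0.11, with 1 of 12 over 0.1, and 9 of 24 cases matched their own number best. The block changed no other member call of the score fit. With loci in at least 9 kidneys, 2 member loci were called in each comparison with control. Leaving out each kidney in turn gave 3 to 4 genes and 2 to 4 loci called toward IG, and 1 to 2 genes and 1 to 3 loci toward control, in IG against control. The highest counts came without IG 2 or IG 3 (4 loci toward IG) and without control 3 or IG 3 (3 loci toward control). In TG against IG it gave 0 genes and 0 to 1 loci toward TG and 1 to 2 genes and 1 to 3 loci toward IG, with 3 loci without IG 1. In TG against control it gave 2 to 3 genes and 2 to 3 loci toward TG and 1 to 3 genes and 2 to 4 loci toward control, with 3 genes without TG 4 and 4 loci without control 3 or TG 4. Score calls among the 4 member loci ran from 0 (without IG 1) to 2 (without IG 2) for IG and from 1 to 2 (without control 1, control 2 or IG 1) for TG against control, and stayed at 0 for TG against IG. Mean differences in member genes ran from 0.25 to 4.25 (IG against control), -7.75 to -3.75 (TG against IG) and -4.08 to -2.42 (TG against control). The score difference of Itga9 between TG and IG (0.12) ran from -0.73 to 0.63 and turned to -0.73 without IG 2, -0.026 without TG 3 and -0.37 without TG 4, and that of Itga8 between TG and control (0.16) ran from -0.050 (without control 3) to 0.37 and was -0.00040 without TG 4. No other score difference of a member changed direction, and joining settings, exon share, quantile normalization and sums of scores kept every call. Where a result changed, the cause was not tested.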
